A study of Mus musculus with 20 samples.

Results

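The tumor necrosis factor (TNF) superfamily set described here holds 8 genes, 2 ligands (Tnf, Ltb) and 6 receptors (Tnfrsf1b, Ltbr, Cd40, Fas, Tnfrsf14, Tnfrsf11a). They were taken by probe name from the endogenous probes of the NanoString mouse Immunology panel, and 8 of 8 were found among its 547 endogenous probes. The study asked how a diet high in DHA, the omega-3 fatty acid docosahexaenoic acid, changed the lung response to agricultural dust. Male wild-type C57BL/6J mice, 5 to 8 weeks old on arrival, were fed for 4 weeks a DHA-rich diet (about 1.4% of calories from DHA) or a control diet with high-oleic safflower oil and no DHA. They then received 50 µL of 12.5% HDE, an aqueous extract of dust collected in hog barns, or of sterile saline once through the nose under isoflurane, and lungs were taken at 5 h. Left lung RNA was counted in 7 DHA-diet-fed mice given HDE, 6 control-diet-fed mice given HDE, 3 DHA-diet-fed mice given saline and 4 control-diet-fed mice given saline.

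The ligands of this superfamily are trimeric proteins, made at the cell surface, that cluster receptors on the same or a neighbouring cell. Receptors that carry a death domain, such as Fas, can start apoptosis, while receptors without one, such as the products of Tnfrsf1b, Cd40, Ltbr and Tnfrsf11a, recruit TRAF adaptor proteins and switch on NF-κB. TNF is an early alarm cytokine of the lung, released by alveolar macrophages and other myeloid cells after inhaled microbial products.

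Raw counts summed over the endogenous probes lay between 123536 and 684074 per mouse. Counts were scaled by the geometric mean of 4 housekeeping genes, and all levels below are such scaled counts. Each lane has its own background, set here at the mean plus 2 SD of its 8 negative control probes, which corresponded to 7.75 to 97.5 scaled counts. Replicate numbers name the mice of a group and nothing more. The sample titles carry 2 different prefixes, taken here as 2 runs of 10 mice each, with mice of every group in both. The endothelial marker Pecam1 (mean 3360 scaled counts) and the epithelial marker Muc1 (mean 4375) were abundant, as the lung label implies. In control-diet-fed mice given HDE 2 libraries stood furthest apart. In replicate 6 all 8 genes were at or below the highest saline mouse. Of them 4 lay below every saline mouse, Ltbr narrowly (426.4 against 426.9). The shares of all genes that did so were not counted. The summed neutrophil markers were 1041, under the 1661 to 5284 of the saline mice. Its lane had the highest housekeeping mean of all lanes (6827 raw counts, scale factor 0.393), which lowers every scaled count of that mouse. In replicate 3 the summed markers of thymocytes (9697) and T cells (10460) were far above the 368 to 437 and the 614 to 1019 of the saline mice. Replicate 2 exceeded the saline mice less (1173 and 2139), and its lane had the highest background, 97.5 scaled counts. Nothing in the files checks the exposure label of replicate 6, and all libraries are called by their labels throughout. Where the call of 1 of the 8 genes changed without replicate 3 or without replicate 6, the value without that mouse is given.

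Tnf and Ltb are neighbours on chromosome 17, where RefSeq places Ltb next to Tnf and Tnf next to Lta. Tnf is the gene of the set with the largest difference after HDE and Ltb the other ligand, so the 250 bases before the start of each are shown from RefSeq (GRCm38.p6, chr17:35202008-35202257, minus strand, and chr17:35194257-35194506, plus strand). Capitals mark TATAAA in Tnf, which began 29 bases before the start, and a match to the κB consensus (the NF-κB binding motif) in Ltb, which began 87 bases before it.

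Tnf: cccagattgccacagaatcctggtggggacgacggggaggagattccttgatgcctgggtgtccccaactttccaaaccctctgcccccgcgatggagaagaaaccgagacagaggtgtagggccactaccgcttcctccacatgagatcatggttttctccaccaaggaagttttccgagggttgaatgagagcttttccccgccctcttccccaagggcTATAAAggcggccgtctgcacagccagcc

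Ltb: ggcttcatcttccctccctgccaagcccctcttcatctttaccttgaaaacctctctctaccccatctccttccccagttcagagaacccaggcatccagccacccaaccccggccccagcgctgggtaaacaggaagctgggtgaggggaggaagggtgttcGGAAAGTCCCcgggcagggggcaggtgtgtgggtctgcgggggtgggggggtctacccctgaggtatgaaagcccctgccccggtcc

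A promoter window of 300 bases was found for 7 of the 8 genes in that table, all but Cd40 (250 before and 50 after the start). On either strand the κB consensus was found in 1 of the 7 and in 4.51% of all 32851 windows, and TATAAA in 1 of the 7 and in 13.6% of all windows. Of the panel's genes with a window, 44 of 407 (10.8%) held the κB consensus in at least 1 window, a count by gene and not by window. Matches were counted on letters alone and do not show that a factor binds.

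HDE exposure was associated with higher lung RNA of both ligands and of the receptors Tnfrsf1b, Fas and Cd40, under every scaling that was tried over the 20 mice. Tnf differed most, by 3.64 ± 0.54 on the log2 scale (SE, 13 HDE and 7 saline mice), followed by Tnfrsf1b, the TNF receptor TNFR2, at 2.07 ± 0.35. Ltb (1.51 ± 0.32), Fas (1.49 ± 0.38) and Cd40 (1.02 ± 0.26) lay between these and the smallest differences, those of Tnfrsf14 (0.89 ± 0.25), Tnfrsf11a (0.64 ± 0.26) and Ltbr (0.45 ± 0.17). By edgeR's quasi-likelihood test with a term for diet, all 8 genes passed an adjusted p of 0.05, while 42.5% of the 358 genes tested were called higher and 5.03% lower. Of the 8, Tnf and Tnfrsf11a averaged 41.9 and 63.2 scaled counts in the saline mice and passed the filter of 82 mean counts only through the HDE mice, so that those 2 had to be higher to be tested at all. The median difference was 1.25 for the 8 genes and 0.47 for all genes tested, and Ltbr lay at that median. The 8 genes were chosen with earlier results of these data known, so their counts and median do not test the superfamily as a whole. Of its other genes 2 passed the filter, Tnfsf10 (0.53 ± 0.31) and Tnfsf12 (-0.31 ± 0.20), and neither was called. In whole lung RNA, more cells of a type and more RNA per cell cannot be told apart.

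Tnf encodes the superfamily's founding cytokine. In DHA-diet-fed mice given HDE it ranged from 294.7 to 1575 scaled counts (median 637), and in control-diet-fed mice given HDE from 25.9 to 621 (median 465). After saline it was 51.5, 86.2 and 17.9 in DHA-diet-fed mice, and 37.6, 53.8, 23.5 and 22.9 in control-diet-fed mice. Apart from replicate 6 of the control diet, the HDE mice did not overlap with the saline mice, which left 12 of 13 above them. For Tnf, Ltb, Tnfrsf1b and Fas at most 1 HDE mouse failed to exceed the saline mice, as for 20.7% of all genes tested. The fitted difference in Tnf was 12.4-fold (adjusted p = 2.3e-05). Tnf counts were above the background of the lane in 13 of 13 HDE mice and 6 of 7 saline mice. With that background subtracted from every count the log2 difference was 5.84 ± 0.70, so that its size depends on how counts near background are treated. Its call held in each alternative that kept Tnf in the test, and it was left untested only where 82 counts were required in every mouse.

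Ltb encodes lymphotoxin-β, which anchors lymphotoxin-α at the cell surface and binds the receptor encoded by Ltbr. It ranged from 163 to 527 in DHA-diet-fed mice given HDE (median 229) and from 59.0 to 461 in control-diet-fed mice given HDE (median 288). After saline it was 157, 119 and 76.0 in DHA-diet-fed mice, and 102, 87.9, 75.4 and 78.6 in control-diet-fed mice. Again 12 of 13 HDE mice were above every saline mouse, and replicate 6 of the control diet was below all of them (adjusted p = 7.0e-04 for HDE). The highest control-diet value, 461, was that of replicate 3, the library with the highest T cell and thymocyte markers. On the control diet the log2 difference was 1.42 ± 0.43 without replicate 3 and 1.65 ± 0.44 with it. Ltb is made by lymphocytes, and the part of those cells in its level was not tested.

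Tnfrsf1b encodes TNFR2, the TNF receptor without a death domain, which is carried mainly by immune and endothelial cells. It ranged from 522 to 1987 in DHA-diet-fed mice given HDE (median 988) and from 143 to 1133 in control-diet-fed mice given HDE (median 864). After saline it was 229, 250.5 and 133 in DHA-diet-fed mice, and 275, 238, 237 and 172 in control-diet-fed mice. Apart from replicate 6 of the control diet, the lowest HDE mouse lay above the highest saline mouse (adjusted p = 9.7e-05).

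Fas encodes the death receptor for Fas ligand. It ranged from 350.5 to 1921 in DHA-diet-fed mice given HDE (median 512) and from 191 to 1211 in control-diet-fed mice given HDE (median 778), while after saline it was 295, 224 and 271 in DHA-diet-fed mice, and 299, 274, 301 and 349 in control-diet-fed mice. The 13 HDE mice spread 10.1-fold in Fas, with control-diet replicate 6 (191) the lowest, and the 7 DHA-diet-fed mice among them spread 5.48-fold. Of these, 2 (replicates 6 and 7, 363 and 350.5) lay just above the highest saline mouse, at 349. The fitted difference was 2.80-fold (adjusted p = 0.0026). Cd40 encodes the receptor by which T cells activate B cells, dendritic cells and macrophages. It ranged from 151 to 393 in DHA-diet-fed mice given HDE and from 71.5 to 364 in control-diet-fed mice given HDE, while after saline it was 129, 162 and 81.96 in DHA-diet-fed mice, and 125, 106, 102 and 101 in control-diet-fed mice. The groups overlapped through replicate 2 of the DHA diet and replicate 6 of the control diet (2.03-fold, adjusted p = 0.0026).

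Tnfrsf14 encodes HVEM, a receptor for LIGHT (the product of Tnfsf14). It ranged from 197 to 471 in DHA-diet-fed mice given HDE and from 137 to 538 in control-diet-fed mice given HDE, against 140 to 173 and 123 to 268 after saline on the DHA and control diets. The value 538 was that of control-diet replicate 3, and on the control diet without that mouse the log2 difference was 0.64 ± 0.34, against 0.82 ± 0.34 with it. Ltbr, the receptor for membrane lymphotoxin and LIGHT, changed least in relative terms. It ranged from 500.1 to 912 and from 426 to 885 after HDE on the DHA and control diets, against 427 to 483 and 448 to 575 after saline on the DHA and control diets, and 7 of 13 HDE mice were above every saline mouse. Tnfrsf11a encodes RANK, the receptor through which RANKL drives osteoclasts and lymph node development. It was at 42.7 to 163 and 48.7 to 117 after HDE on the DHA and control diets, against 43.4 to 77.2 and 43.2 to 87.2 after saline on the DHA and control diets. Its counts exceeded the lane's background in 13 of 13 HDE mice and 6 of 7 saline mice. They were 0.59 lower on the log2 scale in run 2 than in run 1 (edgeR, adjusted p = 0.089). Tnf was 0.79 lower in run 2 (adjusted p = 0.25), and 39 of the 358 genes tested were called for run. The adjusted p for HDE was 0.0053 for Tnfrsf14, 0.037 for Ltbr and 0.048 for Tnfrsf11a. The call of Ltbr was lost when any 1 of 11 of the 20 mice was left out and that of Tnfrsf11a for 15 of the 20, while the other 6 genes kept their call without any single mouse.

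**Figure D1:**
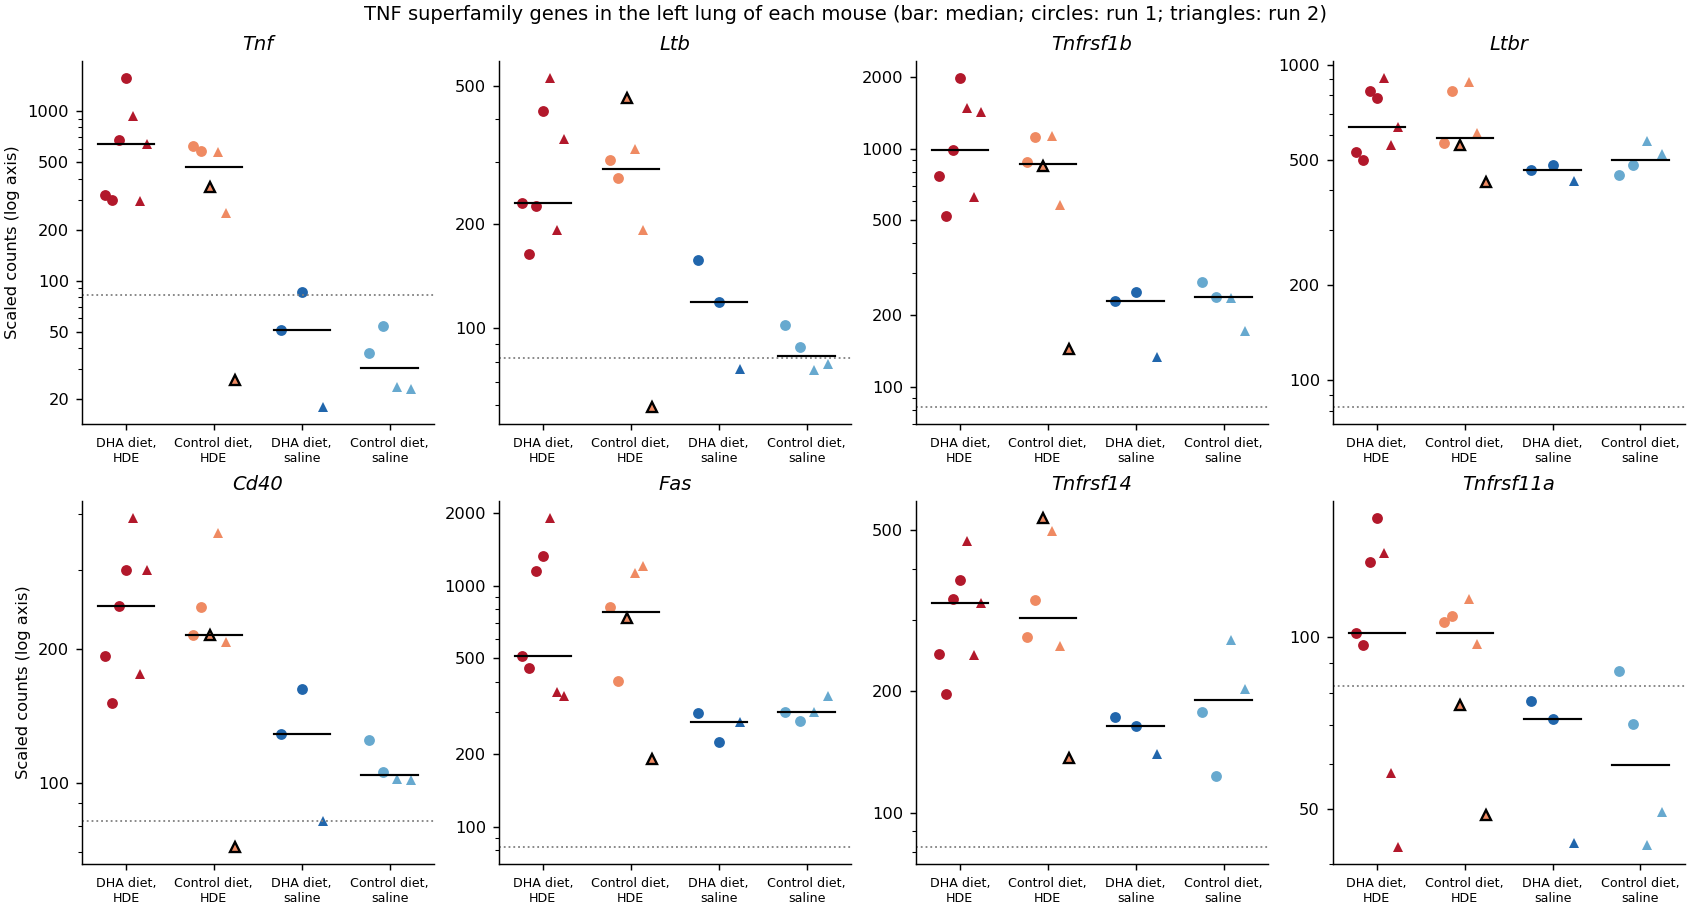
Scaled counts (log axes) of the 8 genes in each mouse, by diet and exposure, with circles for run 1, triangles for run 2, a bar at the group median, and a dotted line at the filter of 82. Outlined triangles are HDE replicates 3 and 6 on the control diet, and replicate 6 lies at saline levels, for example 25.9 for Tnf and 143 for Tnfrsf1b.

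The size of these differences depended on the scaling. With TMM, which centres the bulk of the genes, the median over all 358 genes was -0.03 instead of 0.47, and the calls were 106 higher and 94 lower instead of 152 and 18. Tnf (3.04 ± 0.40), Tnfrsf1b (1.49 ± 0.24), Ltb (0.95 ± 0.23), Fas (0.84 ± 0.27) and Cd40 (0.47 ± 0.16) were still called higher, with adjusted p between 5.4e-06 and 0.016, where 29.6% of genes were called higher. Tnfrsf14 (0.32 ± 0.19, adjusted p = 0.16) and Tnfrsf11a (0.11 ± 0.15, adjusted p = 0.52) were not, and Ltbr turned to -0.09 ± 0.13 (adjusted p = 0.56). For Ltbr the direction was therefore set by the scaling.

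**Figure D2:**
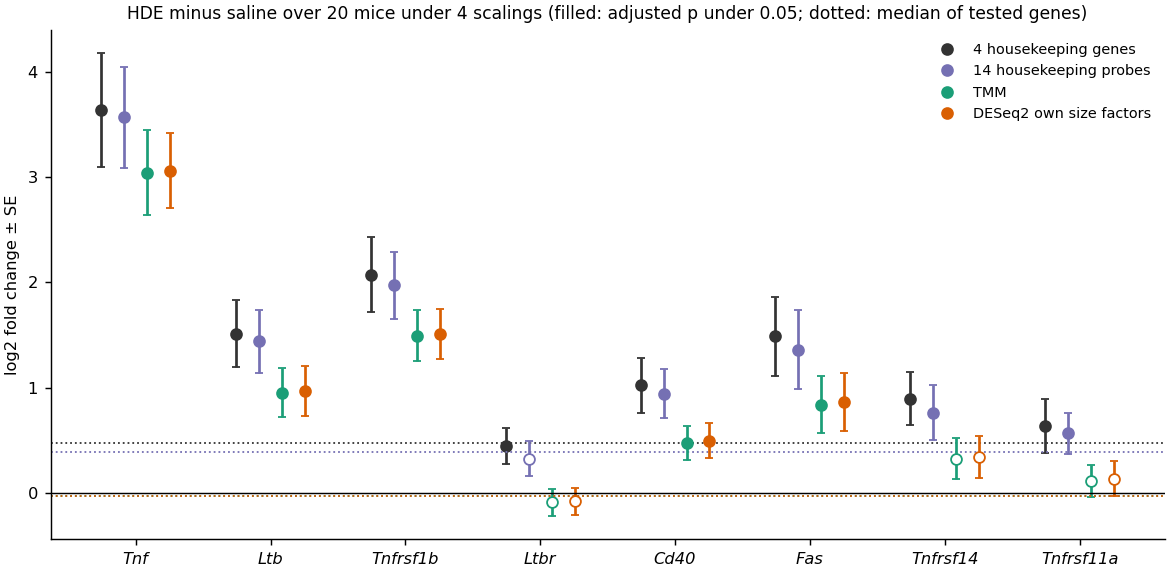
Log2 difference of HDE over saline (± SE, 13 and 7 mice) for each gene under 4 scalings, with filled points for an adjusted p under 0.05 and dotted lines at the median of all genes tested under each scaling. Tnf, Ltb, Tnfrsf1b, Cd40 and Fas are filled under all 4, and Ltbr lies at 0.45 with the 4 housekeeping genes and at -0.09 with TMM.

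Ratios of 2 genes counted in the same lane do not depend on the scaling. The log2 ratio of Tnf to Ltb had a median of 0.86 in DHA-diet-fed mice given HDE and 0.59 in control-diet-fed mice given HDE, against -1.61 and -1.56 in the DHA-diet-fed and control-diet-fed saline mice. That of Tnfrsf1b to Ltbr had medians of 0.54 and 0.40 after HDE on the DHA and control diets, against -1.02 and -1.14 after saline on the DHA and control diets. That of Tnf to Tnfrsf1b had medians of -0.81 and -1.1 after HDE on the DHA and control diets, against -2.15 and -2.89 after saline on the DHA and control diets. For each of the 3 ratios, 12 of 13 HDE mice exceeded all saline mice, and control-diet replicate 6 did not. The 2 ligands and the 2 receptors were thus changed unequally after HDE, Tnf more than Ltb and Tnfrsf1b more than Ltbr. Counts of different probes are not calibrated to each other, so the ratios compare mice and not the amounts of the 2 transcripts. The saline values of both ratios with Tnf rest on counts near background.

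**Figure D3:**
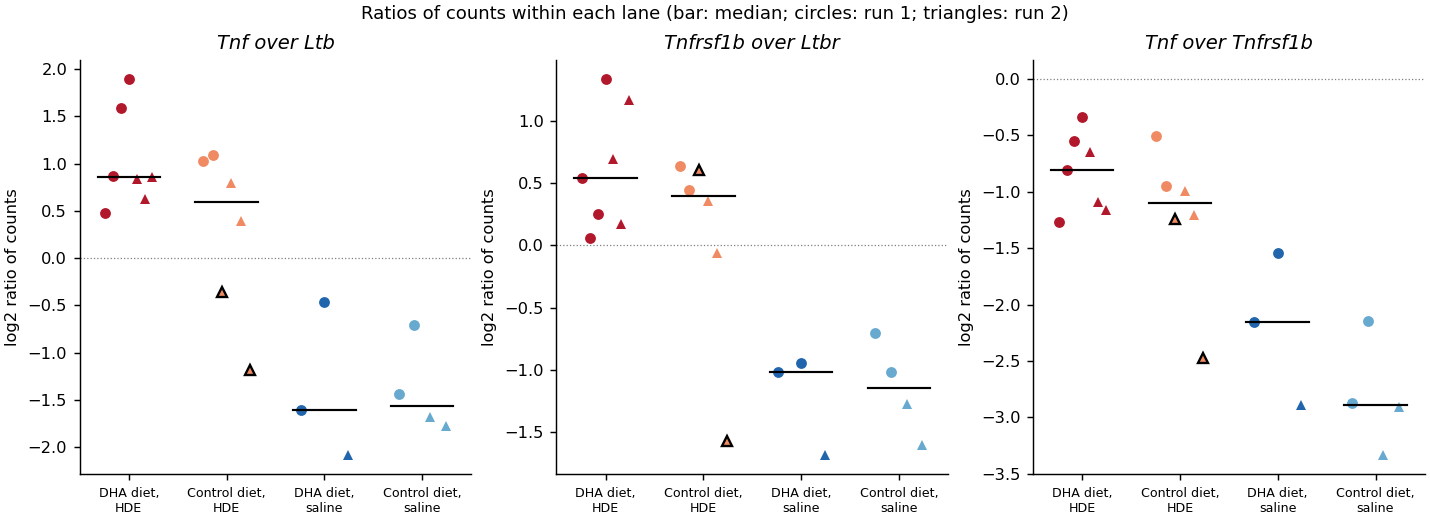
Log2 ratios of Tnf to Ltb, Tnfrsf1b to Ltbr and Tnf to Tnfrsf1b within each lane, by diet and exposure, with a bar at the group median. In every panel the HDE mice other than control-diet replicate 6 (the lower outlined triangle) lie above all saline mice.

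Within each diet, where each comparison rested on fewer mice, fewer genes passed. In DHA-diet-fed mice HDE raised Tnf (3.74 ± 0.83), Tnfrsf1b (2.45 ± 0.54), Fas (1.72 ± 0.57) and Ltb (1.36 ± 0.48), 4 of the 8, with adjusted p between 0.0027 and 0.036, where 30.4% of the 358 genes were called higher and 1.68% lower. Cd40 (1.02 ± 0.39) and Tnfrsf14 (0.99 ± 0.38) had an adjusted p of 0.0505 each, and the values of Tnfrsf11a (0.71 ± 0.39) and Ltbr (0.57 ± 0.26) did not pass. In this model the 4 groups share 1 estimate of the spread, and without control-diet replicate 6 Cd40 (adjusted p = 0.015) and Tnfrsf14 (adjusted p = 0.022) passed on the DHA diet, and Tnfrsf14 did so too without replicate 3 (adjusted p = 0.041). All 7 HDE mice were above all 3 saline mice for 6 of the 8 genes (not for Cd40 and Tnfrsf11a), as they were for 26.3% of all genes. In control-diet-fed mice HDE raised Tnf (3.55 ± 0.73), Tnfrsf1b (1.77 ± 0.46), Ltb (1.65 ± 0.44) and Cd40 (1.02 ± 0.36), again 4 of the 8, with adjusted p between 0.0022 and 0.041, where 25.1% of genes were called higher and 0.838% lower. Fas (1.29 ± 0.51, adjusted p = 0.064), Tnfrsf14 (0.82 ± 0.34, adjusted p = 0.082), Tnfrsf11a (0.57 ± 0.36) and Ltbr (0.35 ± 0.24) did not pass. In 5 of the 8 genes all but 1 of the 6 HDE mice exceeded every saline mouse, and at least that many did in 35.5% of all genes. Without control-diet replicate 6, Fas (1.49 ± 0.46, adjusted p = 0.012) and Tnfrsf14 (0.98 ± 0.31, adjusted p = 0.014) passed as well. Without replicate 3 Cd40 did not (1.03 ± 0.37, adjusted p = 0.054), and its call on the control diet was lost when any 1 of 9 of the 20 mice was left out.

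**Figure D4:**
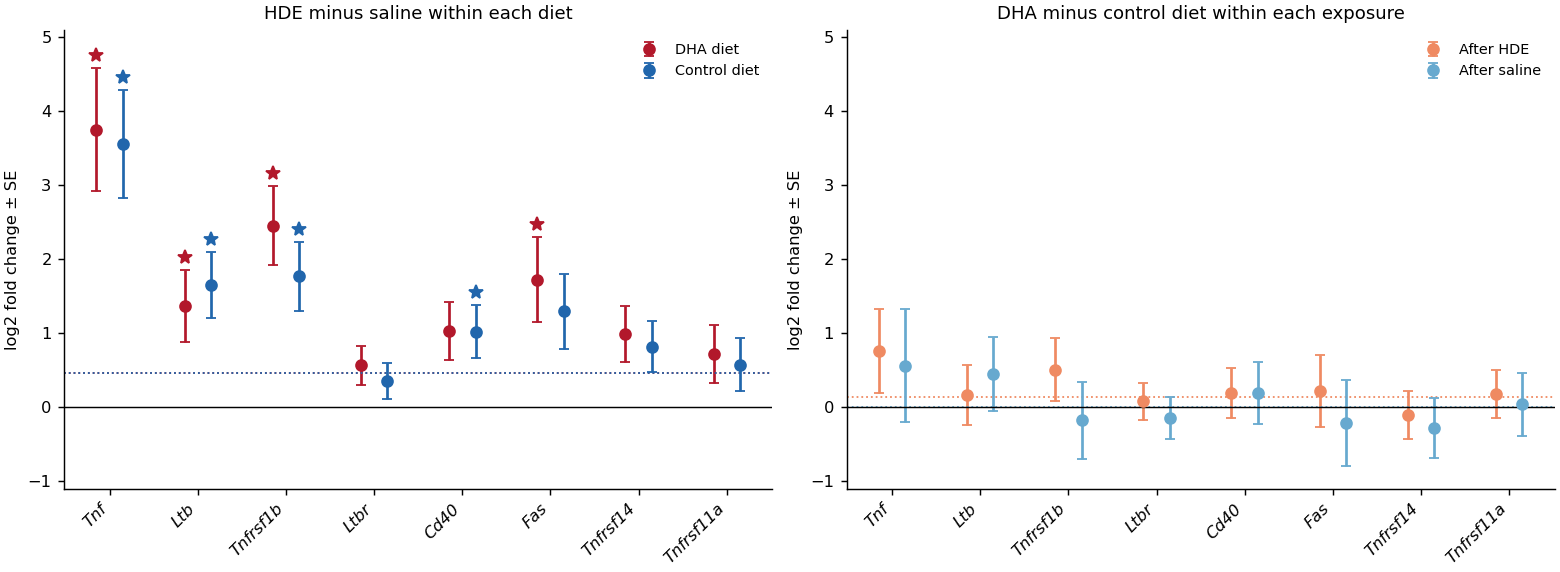
Log2 differences (± SE) for the 8 genes, HDE over saline within each diet on the left and the DHA over the control diet within each exposure on the right, with stars for an adjusted p under 0.05 and dotted lines at the median of all genes tested. Stars appear only on the left, on 4 genes in DHA-diet-fed mice and 4 in control-diet-fed mice, and the right-hand values lie between -0.28 and 0.75.

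The response to HDE did not differ detectably between the diets for any of the 8 genes. The interaction term was 0.68 ± 0.64 for Tnfrsf1b, 0.43 ± 0.71 for Fas, 0.22 ± 0.35 for Ltbr and 0.19 ± 0.94 for Tnf, positive where the HDE difference was larger on the DHA diet, and -0.28 ± 0.61 for Ltb. Each had an adjusted p of 0.997, and 0 of the 358 genes (0%) were called by edgeR or by DESeq2, with 9 genes (2.51%) and 0 of the 8 at an unadjusted p of at most 0.05. The 95% intervals were wide, from -0.66 to 2.02 for Tnfrsf1b and from -1.77 to 2.16 for Tnf, and for 6 of the 8 genes, all but Tnf and Tnfrsf1b, they included differences as large in size as the gene's whole HDE difference. Without control-diet replicate 6 the interaction was 0.47 ± 0.50 for Tnfrsf1b, 0.22 ± 0.63 for Fas, -0.048 ± 0.71 for Tnf, -0.18 ± 0.43 for Cd40 and -0.50 ± 0.50 for Ltb, so that the direction for Tnf and Cd40 turned without that mouse. The term was above 0 for 7 of the 8 genes over both runs, for 3 of 8 in run 1 and for 7 of the 7 tested in run 2, which holds 1 DHA-diet saline mouse.

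Diet itself was then compared among the mice given HDE. Tnf averaged 677 ± 465 scaled counts in DHA-diet-fed mice (SD, n = 7) and 401 ± 234 in control-diet-fed mice (SD, n = 6), a log2 difference of 0.75 ± 0.57 with a 95% interval from -0.45 to 1.95 (adjusted p = 0.98). Tnfrsf1b averaged 1114 ± 534 in DHA-diet-fed mice and 784 ± 374 in control-diet-fed mice, a difference of 0.51 ± 0.42 with an interval from -0.40 to 1.41. The other 6 genes lay between -0.11 (Tnfrsf14) and 0.21 (Fas), beside a median of 0.14 over all 363 genes tested. None of the 8 passed by edgeR, 0% of genes did, and 18 genes (4.96%) but 0 of the 8 had an unadjusted p of at most 0.05. Under DESeq2 with the same scaling 3 genes passed, none of them among the 8. Control-diet replicate 6 weighed on these values, and without it the difference was 0.50 ± 0.42 for Tnf and 0.29 ± 0.33 for Tnfrsf1b, and between -0.28 and 0.05 for the other 6. The highest Tnf (1575) and Tnfrsf1b (1987) were those of DHA-diet replicate 4. Its lane had the lowest housekeeping mean of all lanes (743 raw counts, scaled up 3.61-fold). With each mouse left out the difference ranged from 0.40 to 0.92 for Tnf and from 0.29 to 0.64 for Tnfrsf1b. With replicates 3 and 6 both left out, an alternative chosen after seeing the data, Tnf differed by 0.42 ± 0.44. Within run 1 the difference in Tnf was 0.24 ± 0.61 and within run 2, which holds replicate 6, 1.05 ± 0.84. The diets were spread unevenly over the runs. Of the mice given HDE, run 1 holds 4 DHA-diet-fed and 2 control-diet-fed mice, and run 2 holds 3 and 4. Tnf was 0.79 lower in run 2 than in run 1 on the log2 scale, a value as large as this diet difference.

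Among the saline mice the DHA over control diet difference ranged from -0.28 ± 0.40 for Tnfrsf14 to 0.56 ± 0.77 for Tnf, with 3 and 4 mice. Over all 20 mice, in the model with a term for exposure, Tnf differed by 0.69 ± 0.43 (95% interval -0.21 to 1.59, unadjusted p = 0.12, adjusted p = 0.92, edgeR) and the other 7 genes by -0.17 to 0.28. In both comparisons 0% of genes and 0 of the 8 passed, by edgeR and by DESeq2 with the same scaling, while 1 gene (0.279%) among the saline mice and 14 genes (3.91%) over the 20 mice had an unadjusted p of at most 0.05, with 0 of the 8 among them.

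The intracellular parts of the pathway moved unevenly after HDE. Of 11 receptor adaptors and caspases on the panel, all tested over the 20 mice, 2 passed and both were higher. Tnfaip3, which encodes the NF-κB inhibitor A20, differed by 3.14 ± 0.44 (adjusted p = 1.4e-05), and Traf3, a TRAF protein that restrains the non-canonical NF-κB pathway, by 0.93 ± 0.26 (adjusted p = 0.0053). Traf6 (0.47 ± 0.23, adjusted p = 0.094) and Traf2 (0.36 ± 0.21, adjusted p = 0.17), which carry the signal of the receptors to kinases, did not pass, and the median of the 11 was 0.23, where 42.5% of all genes were called higher and the median of all genes was 0.47. Under TMM 1 of the 11 was higher and 3 were lower, with a median of -0.25.

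Of 11 NF-κB subunits, inhibitors and kinases, 8 were higher and 3 did not pass, with a median of 1.35, beside the same 42.5% and 0.47 over all genes. The 4 with the smallest p were Nfkbia (2.49 ± 0.35), which encodes the inhibitor IκBα, Nfkb2 (2.43 ± 0.38) and Relb (2.18 ± 0.40), the subunits of the non-canonical pathway used by LTβR, CD40 and RANK, and Ikbke (1.35 ± 0.26), a related kinase, with adjusted p between 1.6e-05 and 2.6e-04. Of the 8, Ikbke and Bcl3 averaged 81.0 and 76.3 scaled counts in the saline mice and, like Tnf, passed the filter only through the HDE mice. The 3 that did not pass were the subunits of the IκB kinase complex, Chuk (0.22 ± 0.15), Ikbkg (0.29 ± 0.21) and Ikbkb (0.32 ± 0.27). Under TMM the count was again 8 higher and 0 lower, with a median of 0.83, where 29.6% of all genes were called higher. For diet after HDE 0 of the 22 genes of these 2 groups passed (edgeR) and 1 had an unadjusted p of at most 0.05. That gene, Bcl3, which encodes a nuclear IκB protein and is named for this value after it was seen, had 366 to 1184 scaled counts in DHA-diet-fed mice and 50.7 to 507 in control-diet-fed mice, a difference of 1.13 ± 0.43 (adjusted p = 0.52).

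The binding partners of the set were mostly near background. Of 16 further ligands 11 were found on the panel and 2 were tested, Tnfsf10, which encodes TRAIL (0.53 ± 0.31, adjusted p = 0.18), and Tnfsf12, which encodes TWEAK (-0.31 ± 0.20, adjusted p = 0.23), of which 1 was called lower under TMM. Of 18 further receptors 7 were found on the panel and none passed the filter over the 20 mice. Median levels were 36.1 in HDE mice and 21.9 in saline mice for Lta, which pairs with Ltb, 24.1 in HDE mice and 34.1 in saline mice for Cd40lg, the ligand of CD40, 21.6 in HDE mice and 23.4 in saline mice for Fasl, the ligand of Fas, and 16.6 in HDE mice and 13.5 in saline mice for Tnfsf11, which encodes RANKL. All 4 were under the filter. So was Tnfsf14, which encodes LIGHT, over the 20 mice, with medians of 85.8 in HDE mice and 40.8 in saline mice. Its counts exceeded the lane's background in 12 of 13 HDE mice and 5 of 7 saline mice. Tnfrsf1a, the other TNF receptor, and Tnfrsf11b, the decoy receptor of RANKL, were not among the 7 further receptors found by probe name.

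Across the 20 mice the 8 genes tended to be high in the same animals. The correlation (Pearson, log2 scaled counts) was highest between Tnf and Tnfrsf1b, at 0.977, and lowest between Tnfrsf14 and Tnfrsf11a, at 0.51. Tnf correlated with Ltb at 0.93 and with Cd40 at 0.932, but with Fas at 0.774. With group means removed these were 0.953 for Tnf and Tnfrsf1b and 0.624 for Tnf and Fas. The points share the 4 groups, and each lane's scaling factor and depth enter both values, so the coefficients are descriptions.

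**Figure D5:**
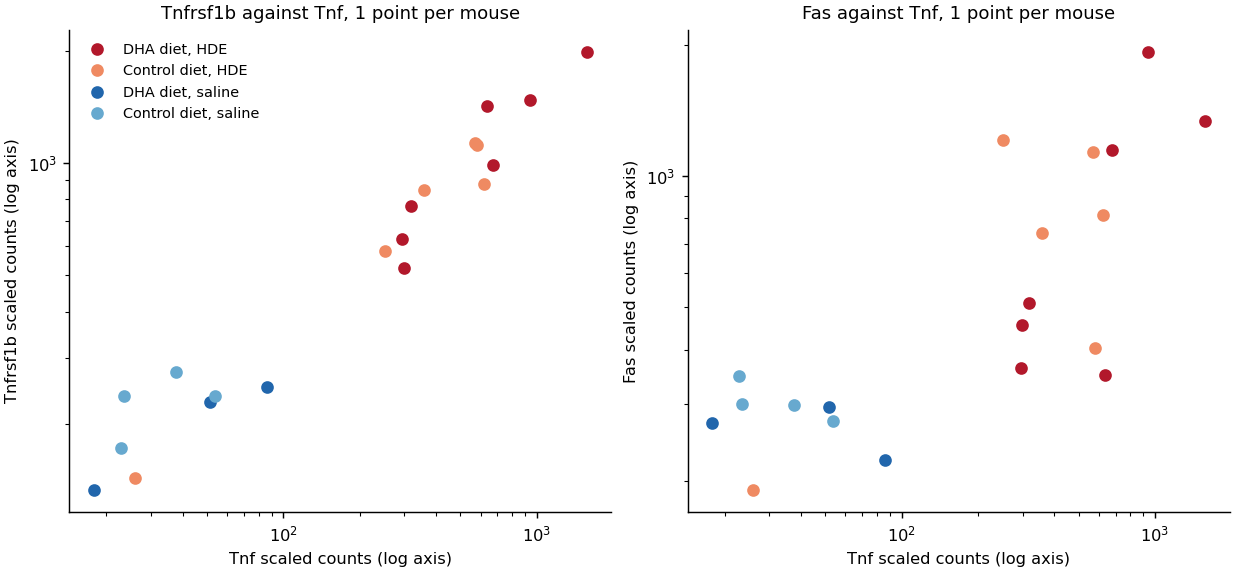
Tnfrsf1b (left) and Fas (right) against Tnf in scaled counts on log axes, with 1 point per mouse coloured by diet and exposure. The points of Tnfrsf1b follow a narrow band (r = 0.977 over 20 mice), and those of Fas spread more widely (r = 0.774).

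Among the genes tested that are not in the set, those most like Tnf were Ccl3, a macrophage chemokine (0.987), Nfkb2 (0.985) and Ptafr, a receptor of phospholipid mediators (0.983). For Tnfrsf1b they were Csf2rb, the shared β chain of the receptors for GM-CSF, IL-3 and IL-5 (0.987), Nfkb2 (0.987) and Ptafr (0.984), and for Ltb they were Ptafr (0.943), Cd83 (0.931) and Tap1 (0.93). Cd40 was most like Il6st (0.965), Nfkb2 (0.949) and Irgm1 (0.947), and Fas most like Fcgr2b (0.964), Irf1 (0.955) and Ccrl2 (0.953). Tnfrsf14 was most like Il2rg (0.908) and Bst2 (0.898), and Ltbr most like Psmd7 (0.922), Icosl (0.903) and Ifnar1 (0.885). Tnfrsf11a was most like Traf6 (0.946), Mapkapk2 (0.946) and Xbp1 (0.934). Tnf, Tnfrsf1b, Ltb and Cd40 thus each had Nfkb2 or Ptafr among the genes named, while those named for Fas, Ltbr, Tnfrsf14 and Tnfrsf11a were not shared with another gene of the set.

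Markers of neutrophils moved with these results. The summed counts of 7 neutrophil markers were 5719 to 62531 in DHA-diet-fed mice and 1041 to 34341 in control-diet-fed mice given HDE, against 1661 to 2357 and 2283 to 5284 after saline on the DHA and control diets, and 6 of the 7 were called higher, where 42.5% of all genes were. Their log2 sum correlated over the 20 mice with Fas at 0.941 and with the other 7 genes at 0.657 (Tnfrsf11a) to 0.866 (Tnfrsf1b). For 6 markers of macrophages and dendritic cells the sums were 1635 to 3800 in DHA-diet-fed mice and 971 to 2140 in control-diet-fed mice given HDE, against 1278 to 1513 and 1320 to 1766 after saline on the DHA and control diets, and 2 of 6 were called higher, a share under that of all genes. Of the T cell, thymocyte, natural killer cell and endothelial markers tested none was called, of 5 B cell markers 2 were lower, and of 3 epithelial markers 1 was higher. The log2 sum of the macrophage and dendritic cell markers correlated with the 8 genes at 0.553 (Tnfrsf14) to 0.819 (Tnfrsf1b). For Tnfrsf11a it was 0.687, above the neutrophil value. Epithelial markers gave 0.174 (Tnfrsf14) to 0.661 (Tnf), and the remaining lists at most 0.454 (thymocytes with Tnfrsf14). The part of cell numbers in the levels of the 8 genes was not tested.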

How the data were processed

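The NanoString mouse Immunology panel was run on left lung RNA of 20 mice, and groups were taken from the sample titles. The authors used an nCounter Sprint instrument and nSolver, and deposited raw counts per probe and lane. The deposited normalized values, a signal on a count-like scale, equal the raw counts times 1 factor per lane, which is the scaling used here times 1.18. No column of either table was left unused (0 unused).

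Each lane's raw counts were divided by its geometric mean over the housekeeping genes Eef1g, Oaz1, Ppia and Rpl19, which the study's methods name, and brought to a common scale. Genes whose scaled counts averaged at least 82 over the 20 mice (for diet after HDE, over the 13 HDE mice) entered edgeR 4.0.16 (R 4.3.3) and its quasi-likelihood test, with Benjamini-Hochberg adjustment over all genes tested (358, or 363 among HDE mice) and a threshold of 0.05. HDE and diet over 20 mice came from a model with both terms, within-diet contrasts, the saline contrast and the interaction from 1 model with a term per group, and diet after HDE from the 13 mice. SE is the fold change over the root of its F statistic, and intervals use its t distribution. Limma 3.58.1 and DESeq2 1.42.0 served as alternatives, and the scripts were tested on simulated data. Alternatives were other scalings, filters and tools, background subtraction, run as a block, each run alone and each mouse left out.

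The 8 genes and the gene lists were chosen with earlier results of these data known. Named beside them, by rule, were up to 4 genes of each pathway list with the smallest p for HDE, direct binding partners, and the 3 genes most correlated with each member, of which 1 is not reported here. Promoters and gene order came from RefSeq (GRCm38.p6), where 8 of 8 members and 531 of 547 probe names matched by symbol. The methods state that 24 lungs from 3 experimental sets were processed, but which mouse belongs to which set is not stated in them. Of the 190 pairs of lanes, none held counts alike within sampling noise (lowest chi-square per degree of freedom 7.70).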

Additional observations from a re-analysis of the deposited data

Results flagged for a closer look

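Replicate 6 of the control-diet-fed mice given HDE was the lowest of its 6 mice for Tnf, Tnfrsf1b and Cd40 by a gap that exceeded the limit for a group of that size (Dixon's ratio of the gap to the range, limit 0.625). The ratio was 0.713 for Tnf (25.9 scaled counts), 0.676 for Tnfrsf1b (143) and 0.652 for Cd40 (71.5). In all, 24 groups of 4 to 7 mice were examined (8 genes in 3 groups), of which chance flags about 1 in 20, and the 3 flags concern 1 mouse. In that mouse the summed neutrophil markers were 1041, against 6927 to 34341 in the other 5 control-diet-fed mice given HDE. The 3 saline mice on the DHA diet were too few for the check.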

How the results depend on the processing

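Over the 20 mice 8 genes were called higher after HDE. With limma on the deposited normalized values, a filter at a mean of 20 counts, no filter, or run 1 alone, 6 were called. With the 14 housekeeping probes 7 were called. Ltbr lost its call in each of these, and Tnfrsf11a in all but that with 14 housekeeping probes. The number was 5 with TMM and with DESeq2's own size factors, 4 with 82 counts required in every mouse (which left only 4 of the 8 to test) and 1 in run 2 alone, and it ranged from 6 to 8 when each mouse was left out. On the control diet 4 were called, against 1 with 82 counts required in every mouse, 0 in run 2 alone and 1 to 6 when each mouse was left out. There 2 passed without control-diet saline replicate 3, 1 without saline replicate 4 and 6 without HDE replicate 6. On the DHA diet 4 were called, against 2 with TMM, 0 in run 2 alone and 2 to 6 when each mouse was left out, with 2 when HDE replicate 5 or any 1 of the 3 saline mice of that diet was missing. In the diet comparisons and the interaction 0 were called under every alternative. Run 2 holds 1 saline mouse on the DHA diet, whose spread is assumed to be that of the other groups. Run 2 alone, with 7 HDE and 3 saline mice, called 40 genes over both diets and 0 within either.

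Ltbr after HDE turned to -0.089 with TMM and -0.078 with DESeq2's own size factors over the 20 mice, to -0.11 and -0.11 on the control diet and to -0.066 and -0.037 on the DHA diet. The diet difference after HDE turned for Ltb (-0.17 in run 1 alone), for Ltbr (-0.11 with TMM, -0.059 with DESeq2's own size factors, -0.074 in run 1, -0.087 without control-diet replicates 3 and 6), for Cd40 (-0.060 in run 1, -0.043 without those 2 mice), for Fas (-0.032 with TMM, -0.005 with DESeq2's own size factors, -0.041 without those 2 mice) and for Tnfrsf11a (-0.026 with TMM, -0.075 in run 2, -0.048 without those 2 mice). With each mouse left out this difference ranged from -0.051 to 0.38 for Ltb, -0.020 to 0.19 for Ltbr, -0.12 to 0.40 for Fas and -0.28 to 0.068 for Tnfrsf14. After saline, Tnf turned to -0.014 with background subtracted and -0.37 in run 2 (range with each mouse left out -0.012 to 1.00), and Tnfrsf14 to 0.17 in run 1. Over the 20 mice the diet difference of Tnfrsf14 was 0.028 in run 1, and the interaction of Ltb 0.47 in run 2. The cause of these changes was not tested.

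Over all genes, 170 were called for HDE over the 20 mice, 99 with 82 counts in every mouse and 40 in run 2. On the control diet 93 were called, 43 with limma, 40 with 82 counts in every mouse, 56 in run 1 and 0 in run 2, and on the DHA diet 115, 75 with 82 counts in every mouse and 0 in run 2. Diet over the 20 mice gave 1 call with background subtracted, and diet after HDE 3 with DESeq2 on the 4 housekeeping genes, against 0 by edgeR. Run as a block changed the call of none of the 8 genes. No paired analysis was possible because the replicate numbers only name the mice and pair none of them.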

Other observations

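Of the genes of the superfamily left out of the report's tests by the filter of 82 mean counts, 2 were called higher after HDE when no filter was set, while 27.8% of the 547 genes were. They were chosen after their values were seen, although Tnfsf14 is also a binding partner of 2 genes of the set. Tnfrsf9, which encodes the T cell costimulatory receptor 4-1BB, had a median of 74.6 scaled counts in the 13 HDE mice (3.9 to 228) and of 11.4 in the 7 saline mice (3.6 to 55.4), and was called higher (edgeR, adjusted p = 0.0012). It exceeded the lane's background in 12 of 13 HDE mice and 0 of 7 saline mice, so no fold is given. Tnfsf14, which encodes LIGHT, the ligand of the receptors encoded by Tnfrsf14 and Ltbr, had a median of 85.8 in the HDE mice (12.97 to 169) and of 40.8 in the saline mice (17.9 to 57.5), a difference of 1.14 ± 0.37 (adjusted p = 0.021). Tnfsf14 exceeded the background in 12 of 13 HDE mice and 5 of 7 saline mice. The other 8 ligands and 6 receptors that the filter had left out were not called in that fit. Cd27, a T cell costimulatory receptor, reached 721 in control-diet replicate 3 given HDE, the library with the highest thymocyte markers, and 170 in replicate 2. In the saline mice it was at most 58.8. Among the 13 HDE mice only those 2 had at least 82 counts, and with them Cd27 passed the filter there. For diet after HDE it differed by -2.28 ± 0.75 (edgeR, unadjusted p = 0.00775, adjusted p = 0.37).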
